A study of Mus musculus with 12 samples.

Results

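The genes studied here encode subunits of respiratory complexes I, II and III in the mouse iris, with the assembly factors of complex II that share their name stem. They are the genes whose symbol in the array's annotation starts with Ndufa, Ndufb, Ndufc, Ndufs, Ndufv, Sdh or Uqcr and that have a probe set naming no other gene, without the Ndufaf assembly factors, each represented by its probe set with the highest mean over all arrays. The rule found 52 genes, 36 of complex I, 8 of complex II and 8 of complex III, and 51 of them were among the 13190 genes bright enough to be tested. RNA was measured on 12 Affymetrix arrays, 3 for each of 4 strains. The first strain was C57BL/6J. The next, B6-Lystbg-J (B6-Lyst below), is mutant for Lyst. The B6-(Cg)TyrC-2J strain (B6-albino) is mutant for Tyr. The last, B6-D2 congenic, is the labels' B6.D2(Tryp1-Gpnmb-)/SJ, which is mutant for Gpnmb as well as Tyrp1, spelled Tryp1 there. Lyst acts in lysosome trafficking, Tyr and Tyrp1 in melanin synthesis, and Gpnmb encodes a melanosome membrane protein. All animals were 60 days old, and every sample pooled the irides of 2 animals, called a biological replicate in the labels. The labels do not tell whether replicates shared a cage, litter or dissection day, and they give no sex.

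Complexes I, II and III sit in the inner mitochondrial membrane. Complex I takes electrons from NADH and complex II, which is also succinate dehydrogenase of the citric acid cycle, takes them from succinate. Both pass them to ubiquinone, complex III hands them on to cytochrome c, and complexes I and III pump protons that drive ATP synthesis. The iris holds contractile muscle and pigmented epithelium, and its bulk RNA mixes the transcripts of all its cells, so fewer cells of a type and less RNA per cell cannot be told apart. The mitochondrially encoded subunits of complexes I and III fall outside the rule and were not analysed here. Cytochrome c1 (Cyc1), a complex III subunit encoded in the nucleus, also falls outside the rule and is described apart.

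Levels are the deposited log2 values, where a difference of 1 is a doubling of signal, and are given as mean ± SD over 3 arrays. They depend on the probes, so levels are compared only within a gene. Differences between strain means stand with a standard error (SE) and limma's adjusted p over all tested probe sets, and a gene was called at an adjusted p under 0.05. In comparisons with C57BL/6J the difference is the mutant strain minus C57BL/6J.

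Pigment cell RNA was present on all arrays. All 8 pigment cell markers lay far above the test's brightness limit of 5.65, with Dct at 13.84 ± 0.29 and Tyrp1 at 13.44 ± 0.25 in C57BL/6J, and the mean over the 8 markers ranged from 11.87 to 12.76 over the C57BL/6J arrays and from 12.02 to 12.75 over the mutant arrays. The arrays also carried RNA of neighbouring tissue in uneven amounts. The mean of 9 lens markers lay between 8.68 and 11.20 on C57BL/6J arrays, 8.03 and 11.66 on B6-Lyst, 11.41 and 13.10 on B6-albino and 11.02 and 11.76 on B6-D2 congenic arrays. The corneal keratin Krt12 was at 10.45 to 13.81 on 3 arrays (C57BL/6J replicate 1, B6-albino replicate 1 and B6-D2 congenic replicate 2) and at most 7.12 on the others. Of 7 skeletal muscle markers 3 were bright enough to test. The poly-A spike-in controls averaged 7.36 to 8.16 on the C57BL/6J arrays and 4.94 to 5.95 on the mutant arrays, so a comparison with C57BL/6J and this technical difference cannot be told apart. The actin control probe sets, whose 3' end reads further above the 5' end as RNA degrades, differed by 4.30 on C57BL/6J replicate 3 and by 1.84 to 2.72 elsewhere. Arrays of the same strain correlated at 0.97 to 0.99 over all probe sets.

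The complex I, II and III genes moved together from array to array, and the arrays of a strain differed as much as the strains did. Each gene's value was taken as its deviation from its own mean over the 12 arrays. The median deviation of the 51 genes was -0.03, -0.12 and -0.49 on C57BL/6J replicates 1, 2 and 3. It was 0.01, 0.07 and -0.27 on the B6-Lyst arrays, 0.08, 0.31 and -0.10 on the B6-albino arrays, and -0.07, 0.13 and 0.48 on the B6-D2 congenic arrays. C57BL/6J replicate 3 was low as a whole: 0 of 51 genes lay above their own mean there, and it was the lowest array of 44 genes. B6-D2 congenic replicate 3 was the opposite, with 50 of 51 genes above their mean, and it was the highest array of 38. B6-albino replicate 2 also had 50 of 51 genes above their mean, and B6-Lyst replicate 3 had 5. The same quantity over all tested genes stayed between -0.11 and 0.11 on every array, and was lowest on C57BL/6J replicate 3 as well.

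**Figure D1:**
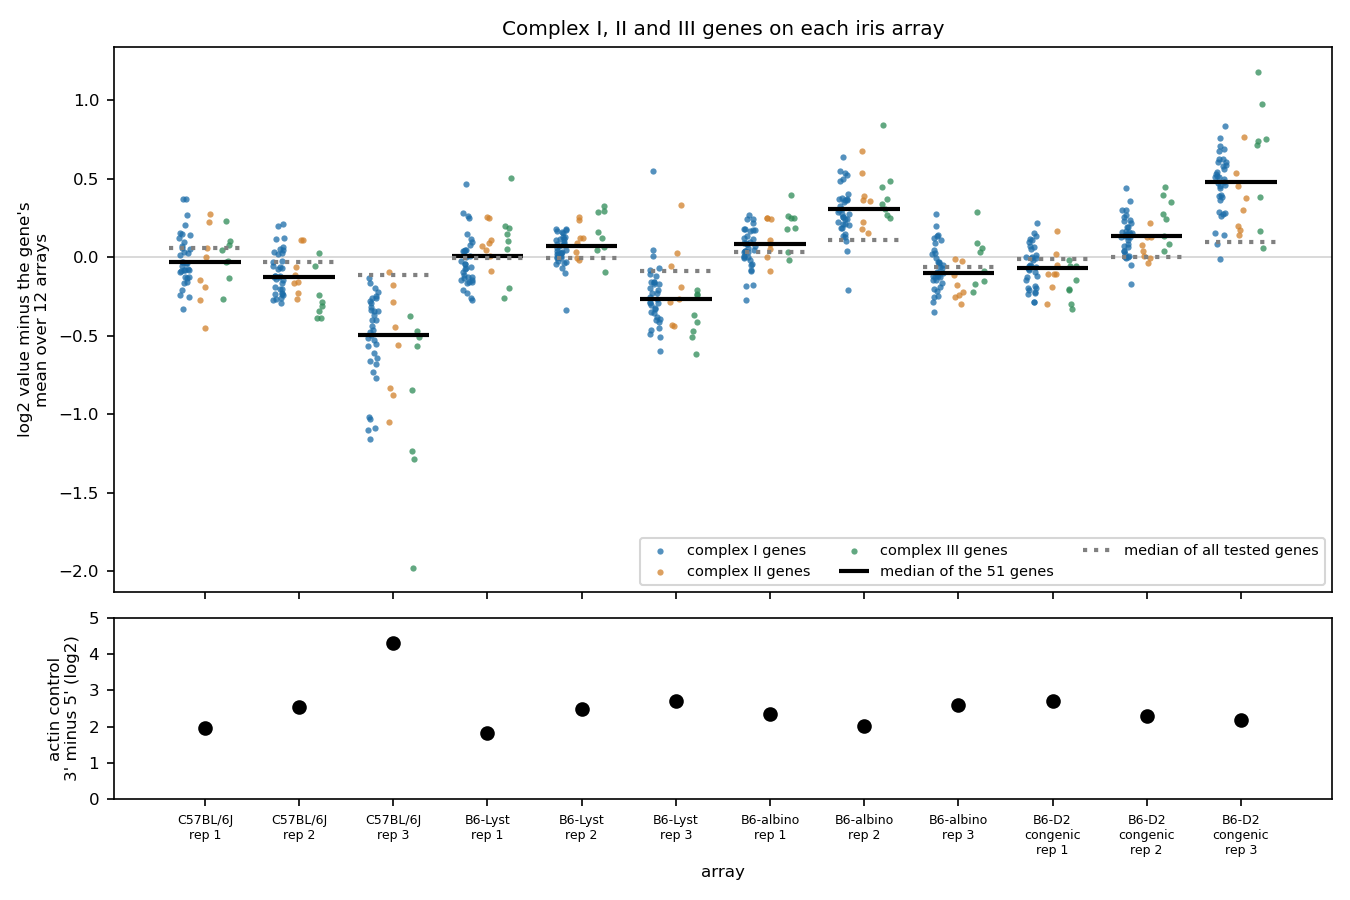
Upper panel: log2 value minus the gene's mean over 12 arrays (vertical axis) for each of the 51 tested genes on each array (horizontal axis), coloured by complex, with the median of the 51 genes as a black line and that of all tested genes as a dotted line. Lower panel: the actin control's 3' minus 5' difference (log2). The 51 genes form a compact cloud on most arrays, with a median of -0.49 on C57BL/6J replicate 3, where the actin difference is 4.30, and of 0.48 on B6-D2 congenic replicate 3, where it is 2.18.

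Over the 12 arrays the median Pearson correlation between pairs of these genes was 0.78, and 97.6% of the 1275 pairs were above 0. After each strain's mean was taken out, the median was 0.79, against 0.05 between every 20th tested gene before that step. These are descriptions over 12 arrays, 3 of each strain, which differ in RNA quality. Strain accounted for a median of 40.2% of a gene's variance over the arrays, beside 39.6% for all tested genes, and for more than 50% in 13 of the 51. The correlation of a gene with the median of the other 50 was above 0.8 for 39 genes. The lowest were Ndufa4l2, a hypoxia-induced relative of Ndufa4, at -0.00, the complex II assembly factor Sdhaf3 at 0.28, the small membrane-arm subunit Ndufb1 at 0.47 and the core subunit Ndufs1 at 0.51. Of all genes outside the group, the values of Cfdp1 (r = 0.99), Atp5g1 (0.98), Ccs (0.98), Atp5j2 (0.98) and Pqbp1 (0.98) followed the group's median most closely over the 12 arrays, again as a description.

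The shift of C57BL/6J replicate 3 and of B6-D2 congenic replicate 3 depended on the scaling. On quantile-normalized values, which give every array the same distribution, the median deviation was -0.20 on the former and 0.24 on the latter, and between -0.14 and 0.10 on the others. As deposited, the upper quartile of all probe sets was 7.68 on C57BL/6J replicate 3, the lowest of the arrays, and 7.84 on B6-D2 congenic replicate 3. The part of RNA quality in these shifts was not tested beyond the fit with the actin difference as a covariate, whose values stand with each comparison.

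No complex I, II or III gene passed limma's test in any of the 6 pairs of strains, nor limma's F test for any strain difference (0 of 51, beside 2.27% of all genes). In all 3 comparisons with C57BL/6J most of these genes nevertheless had the higher mean in the mutant strain. The comparisons share the 3 C57BL/6J arrays, so their directions are not separate observations, and C57BL/6J had the lowest of the 4 strain means for 42 of the 51 genes. The median SE of a difference was 0.19, and the median 95% interval reached 0.41 to either side. Differences well under that size could not be resolved with 3 arrays a strain.

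In B6-D2 congenic irides, 50 of 51 genes had a higher mean than in C57BL/6J, with a median difference of 0.40 and a range from -0.17 to 1.08. Over all tested genes 58.8% were higher, with a median of 0.06. By limma 0 of 51 genes passed (beside 0.0152% of all genes), the lowest adjusted p was 0.177, and 20 had an unadjusted p under 0.05, beside 17.4% of all genes. For 15 genes, all higher in the mutant, no array of 1 strain lay within the range of the other, beside 10.8% of all genes. Both shares were above those of all genes. In a limma fit on only the 6 arrays of B6-D2 congenic and C57BL/6J, 6 of 51 genes had an unadjusted p under 0.05. The share of all genes in that fit was 11.2%, so the members' share of 11.8% was near it. The largest differences were in complex III: Uqcrh, the acidic hinge protein near cytochrome c1, at 1.08 (SE 0.52, adjusted p = 0.296), and Uqcr11, a small peripheral subunit, at 0.95 (SE 0.37, adjusted p = 0.226). The third was Ndufa7, an accessory subunit of complex I, at 0.82 (SE 0.30, adjusted p = 0.205). At the other end were Ndufs1 at -0.17 (adjusted p = 0.578), Ndufb1 at 0.01 and Ndufc2 at 0.08. The median was 0.25 without C57BL/6J replicate 3, with 4 genes at an unadjusted p under 0.05, beside 9.82% of all genes in the same fit. It was also 0.25 without B6-D2 congenic replicate 3, with 1 such gene, beside 11.1%, so that in both fits this share was below that of all genes. Without B6-D2 congenic replicate 1 there were 34 such genes, beside 20.9%, and without B6-D2 congenic replicate 2 there were 13, beside 11.2%. After quantile normalization the median was 0.25, and with the actin difference as a covariate 0.26.

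In B6-albino irides, 49 of 51 genes had a higher mean than in C57BL/6J, with a median difference of 0.30 and a range from -0.13 to 1.05. The same was true of 56.1% of all tested genes, whose median was 0.04. By limma 0 genes passed (beside 0.303% of all genes), 7 had an unadjusted p under 0.05, beside 20.4%, and the arrays did not overlap for 14, all higher, beside 13.9%. The first share was below that of all genes and the second above it. Uqcrh differed by 1.05 (SE 0.52, adjusted p = 0.286), the complex III core protein Uqcrc1 by 0.79 (SE 0.35, adjusted p = 0.238) and the complex I accessory subunit Ndufa9 by 0.65 (adjusted p = 0.282). The lowest were Ndufa4l2 at -0.13 (adjusted p = 0.790), Ndufb1 at -0.06 and Ndufs1 at 0.05. Without C57BL/6J replicate 3 the median was 0.19, with the actin covariate 0.18 and after quantile normalization 0.13 with 37 genes higher. There were 22 genes at an unadjusted p under 0.05 without C57BL/6J replicate 1, beside 25.8% of all genes in the same fit, and 17 without B6-albino replicate 3, beside 19.4%. In these fits the members' share was above that of all genes. Without B6-D2 congenic replicate 3 there were 11, beside 20.8%, and without B6-albino replicate 2 there were 4, beside 17.3%.

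In B6-Lyst irides, 44 of 51 genes had a higher mean than in C57BL/6J, with a median difference of 0.17 and a range from -0.22 to 0.80. All tested genes were split evenly, with 50.04% higher and a median near 0. By limma 0 genes passed (beside 2.68% of all genes), 1 had an unadjusted p under 0.05, beside 16.5%, and 5 did not overlap, all higher, beside 8.77%. The first share was below that of all genes and the second near it. The largest were Uqcrh at 0.80 (SE 0.52, adjusted p = 0.464), Sdhaf3 at 0.49 (SE 0.14, adjusted p = 0.0865) and the accessory subunit Ndufa6 at 0.47 (adjusted p = 0.490). The lowest were Ndufs1 at -0.22 (adjusted p = 0.504), Ndufs7 at -0.12 and Sdha at -0.10. The direction of the median rested on C57BL/6J replicate 3: without it the median was -0.01 and 22 genes were higher, and with the actin covariate it was -0.01 with 20 genes higher. Without B6-Lyst replicate 2 the median was 0.11. There were 9 genes at an unadjusted p under 0.05 without C57BL/6J replicate 1, beside 20.1% of all genes in the same fit, and 8 after quantile normalization, beside 20.3%.

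**Figure D2:**
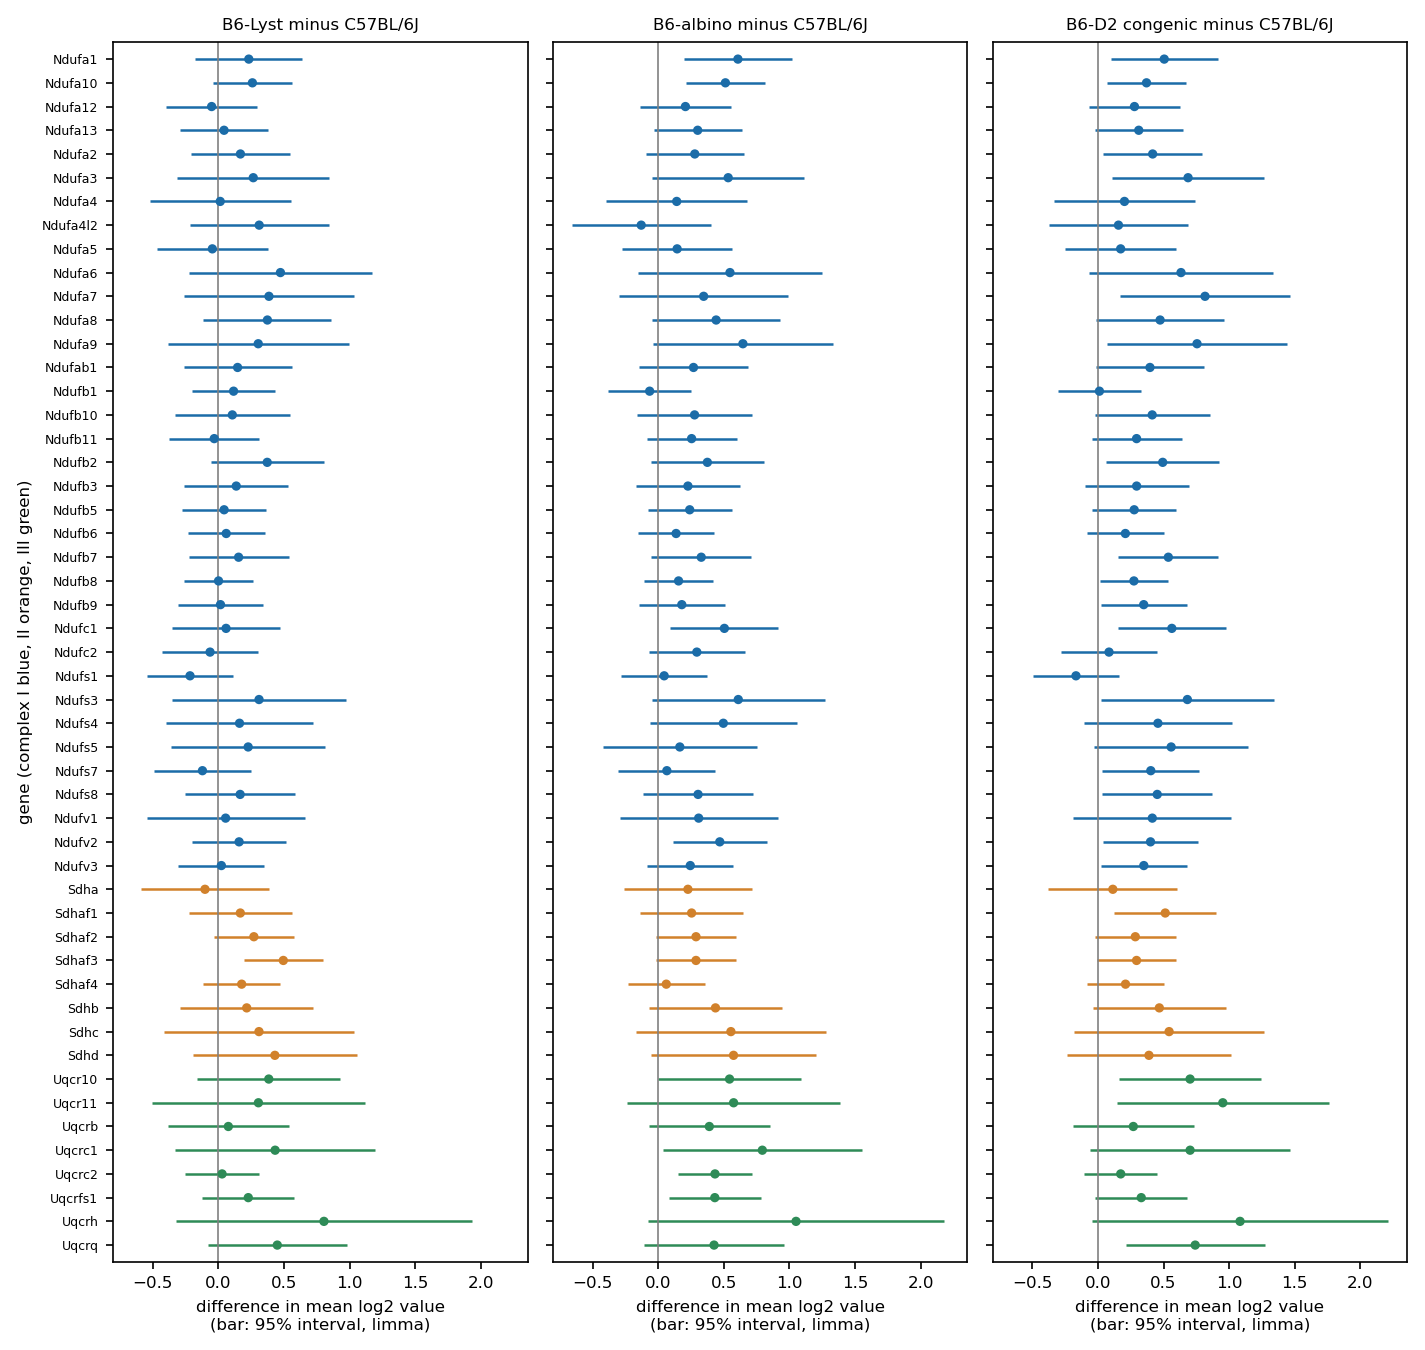
Difference in mean log2 value between each mutant strain and C57BL/6J (horizontal axis), 1 panel per mutant strain, for each of the 51 tested genes (vertical axis), with limma's 95% interval as a bar and the complexes in blue (I), orange (II) and green (III). Most points lie right of 0, with medians of 0.17, 0.30 and 0.40 from left to right, and the widest intervals, those of Uqcrh, reach 1.93, 2.18 and 2.21.

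Grouped by the complex that their symbols name, the genes differed in the size of their median difference. Complex III had the largest in each of the 3 comparisons: 0.34, 0.49 and 0.70 in B6-Lyst, B6-albino and B6-D2 congenic irides, with 8 of 8 genes higher each time. For complex II the medians were 0.24, 0.29 and 0.34, with 7, 8 and 8 of 8 genes higher. For complex I they were 0.14, 0.28 and 0.40, with 29, 33 and 34 of 35 genes higher. In the same order of strains, single differences ran from -0.22 to 0.47, -0.13 to 0.65 and -0.17 to 0.82 in complex I, and from -0.10 to 0.49, 0.06 to 0.57 and 0.11 to 0.54 in complex II. In complex III they ran from 0.03 to 0.80, 0.39 to 1.05 and 0.17 to 1.08. The complex II genes counted here include the assembly factors Sdhaf1 to Sdhaf4, and those of complex I include Ndufa4 and Ndufa4l2. The complex III subunit cytochrome c1 (Cyc1) is not counted, as its symbol falls outside the rule. These are thus medians of the rule's genes and not of the subunits alone. The median deviations by complex varied between arrays of a strain. On C57BL/6J replicates 1, 2 and 3 complex III was at 0.01, -0.295 and -0.70, and complex I at -0.03, -0.12 and -0.46. On B6-D2 congenic replicates 1, 2 and 3 complex III was at -0.18, 0.26 and 0.73, and complex I at -0.06, 0.14 and 0.50. Whether the complexes differed from each other was not tested.

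Complex I has core subunits that carry the flavin and the iron-sulfur clusters, and many accessory subunits around them. Ndufv1, which binds NADH and the flavin, was at 11.30 ± 0.57 in C57BL/6J and at 11.35 ± 0.32, 11.60 ± 0.29 and 11.71 ± 0.26 in the B6-Lyst, B6-albino and B6-D2 congenic strains. Ndufv2, its iron-sulfur partner, was at 11.40 ± 0.14, 11.56 ± 0.20, 11.87 ± 0.06 and 11.80 ± 0.31 in the same order. Its B6-albino and B6-D2 congenic arrays all lay above those of C57BL/6J, and neither difference passed limma's test (adjusted p = 0.161 and 0.247). Ndufs1, the largest subunit of the NADH-oxidizing module, was at 10.41, 10.42 and 10.04 on the C57BL/6J arrays, 10.10, 10.21 and 9.92 on B6-Lyst, 10.43, 10.41 and 10.17 on B6-albino, and 9.98, 10.04 and 10.35 on B6-D2 congenic arrays. The strains overlapped in every pair, and C57BL/6J did not have the lowest mean.

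The core subunits nearest the ubiquinone site were Ndufs3, Ndufs7 and Ndufs8. Ndufs3 was at 10.09 ± 0.57, 10.40 ± 0.25, 10.70 ± 0.29 and 10.78 ± 0.50 in C57BL/6J, B6-Lyst, B6-albino and B6-D2 congenic irides. Ndufs8 followed the same order with 11.32 ± 0.36, 11.49 ± 0.21, 11.63 ± 0.19 and 11.78 ± 0.20. For both genes the difference between the outer strains was little larger than the SD within C57BL/6J. Ndufs7 was at 11.09 ± 0.16, 10.97 ± 0.24, 11.16 ± 0.14 and 11.50 ± 0.27, and its B6-D2 congenic arrays lay above all C57BL/6J and B6-Lyst arrays. The B6-Lyst minus B6-D2 congenic difference was -0.52 (SE 0.17, adjusted p = 0.326).

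Among the accessory subunits, Ndufa10 and Ndufc1 had the smallest F-test p of complex I. Ndufa10 was at 10.50, 10.50 and 10.01 on the C57BL/6J arrays, 10.53, 10.72 and 10.54 on B6-Lyst, 10.89, 10.84 and 10.82 on B6-albino, and 10.69, 10.66 and 10.77 on B6-D2 congenic arrays. Every mutant array lay above every C57BL/6J array, and the B6-albino arrays lay above all others. The largest difference from C57BL/6J, 0.51, was that of B6-albino (SE 0.14, adjusted p = 0.102), with 0.26 for B6-Lyst and 0.37 for B6-D2 congenic irides, and the F test gave an adjusted p of 0.164. Its second probe set, at a mean of 6.21, differed by 0.03 in the first of these, and by 0.08 and 0.16.

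Ndufc1, a small subunit of the membrane arm, was at 11.53, 11.75 and 11.22 on the C57BL/6J arrays, 11.61, 11.74 and 11.31 on B6-Lyst, 11.91, 12.18 and 11.91 on B6-albino, and 11.78, 12.04 and 12.37 on B6-D2 congenic arrays. B6-albino and B6-D2 congenic arrays all lay above those of the other strains, which overlapped with each other. The differences from C57BL/6J were 0.50 (SE 0.19, adjusted p = 0.179) and 0.56 (SE 0.19, adjusted p = 0.185), and the F test gave an adjusted p of 0.166. Its second probe set differed by 0.76 and 0.80 in these strains and, unlike the first at 0.06, by 0.49 in B6-Lyst.

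Ndufa7 was at 10.47, 9.93 and 9.04 on the C57BL/6J arrays, 10.45, 10.23 and 9.91 on B6-Lyst, 10.11, 10.33 and 10.03 on B6-albino, and 10.36, 10.64 and 10.89 on B6-D2 congenic arrays. C57BL/6J replicate 1 lay within the B6-D2 congenic range, so those strains overlapped. All 4 of its other probe sets were higher in B6-D2 congenic than in C57BL/6J irides, by 0.61 to 0.94. Ndufa7 was the only member that any alternative called: with the actin covariate its F test gave an adjusted p of 0.0451, against 0.313 without it. In that fit 11 of 51 genes had an unadjusted F-test p under 0.05, beside 27.1% of all genes. Without the covariate there were 6 such genes, beside 21.8%. In both fits the members' share was below that of all genes.

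Ndufa4 and Ndufa4l2 bear complex I names, but Ndufa4 is known as a subunit of complex IV. Ndufa4 was at 10.56 ± 0.22, 10.57 ± 0.33, 10.70 ± 0.42 and 10.76 ± 0.35 in C57BL/6J, B6-Lyst, B6-albino and B6-D2 congenic irides, less than its spread apart. Ndufa4l2 was at 7.49, 6.98 and 6.65 on the C57BL/6J arrays, 7.59, 6.79 and 7.67 on B6-Lyst, 6.94, 6.92 and 6.87 on B6-albino, and 7.34, 7.14 and 7.11 on B6-D2 congenic arrays. It was dim and its B6-Lyst arrays spanned nearly the whole range. The other complex I genes tested fell within the ranges given for the complex. Ndufb4 was not tested: its probe set that names no other gene had strain means of 4.95 to 5.13, under the brightness limit.

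Promoter sequences of these genes are shown for members with a match to nuclear respiratory factor 1 (NRF1) or ETS-type (GABP) letters just before the start, since both factors are known to drive nuclear genes of the respiratory chain. The first pair are complex I genes, the accessory subunit Ndufa8 (chr2:36049339-36049458) and the core subunit Ndufs3 (chr2:90904722-90904841), both on the minus strand of GRCm38.p6. Each line holds the 120 bases before the RefSeq start, 5' to 3', with the matched letters in capitals (NRF1 in Ndufa8, ETS in Ndufs3).
Ndufa8: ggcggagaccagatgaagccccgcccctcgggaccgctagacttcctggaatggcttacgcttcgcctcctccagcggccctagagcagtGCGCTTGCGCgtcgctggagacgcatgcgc
Ndufs3: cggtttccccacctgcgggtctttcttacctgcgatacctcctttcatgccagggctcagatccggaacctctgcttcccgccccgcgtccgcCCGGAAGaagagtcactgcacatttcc
Ndufa8 was at 10.00 ± 0.32, 10.37 ± 0.18, 10.44 ± 0.33 and 10.47 ± 0.35 in C57BL/6J, B6-Lyst, B6-albino and B6-D2 congenic irides, and both genes followed the group's median closely over the arrays (r = 0.95 and 0.98). No array measures binding of either factor, and a match is only a description of the letters.

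Complex II has 4 subunits. Sdha, the flavoprotein that oxidizes succinate, was at 11.87, 11.70 and 11.04 on the C57BL/6J arrays, 11.51, 11.63 and 11.16 on B6-Lyst, 11.84, 11.96 and 11.48 on B6-albino, and 11.49, 11.56 and 11.90 on B6-D2 congenic arrays. All strains overlapped, and replicate 3 was the lowest array in every strain but B6-D2 congenic, where it was the highest. Sdhb, the iron-sulfur subunit, was at 10.88 ± 0.48, 11.09 ± 0.11, 11.32 ± 0.21 and 11.35 ± 0.33 in C57BL/6J, B6-Lyst, B6-albino and B6-D2 congenic irides. Sdhc, a membrane anchor, was at 8.49 ± 0.65, 8.80 ± 0.35, 9.04 ± 0.29 and 9.03 ± 0.50. Sdhd, the other anchor, was at 9.65 ± 0.47, 10.08 ± 0.30, 10.22 ± 0.47 and 10.04 ± 0.34. For all 4 subunits C57BL/6J replicates spread by 0.44 or more (SD), and the largest strain difference, 0.57 for Sdhd in B6-albino, had an adjusted p of 0.292.

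The promoters of Sdha (chr13:74350241-74350360) and Sdhd (chr9:50603850-50603969), both on the minus strand of GRCm38.p6, are shown because their 120 bases before the RefSeq start hold several matches. The capitals mark 3 NRF1 matches in Sdha, and an NRF1 match followed by an ETS match in Sdhd, all of them on the strand opposite to the one shown.
Sdha: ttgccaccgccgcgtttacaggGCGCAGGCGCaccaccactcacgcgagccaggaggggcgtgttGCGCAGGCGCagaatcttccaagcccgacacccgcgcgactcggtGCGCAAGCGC
Sdhd: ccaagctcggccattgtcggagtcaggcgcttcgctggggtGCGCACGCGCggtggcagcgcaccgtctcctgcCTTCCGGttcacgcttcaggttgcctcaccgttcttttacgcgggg
The deviation of Sdha followed the group's median at r = 0.83 over the 12 arrays and that of Sdhd at 0.89.

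The complex II assembly factors followed the group's median at correlations of 0.28 (Sdhaf3), 0.58 (Sdhaf4), 0.76 (Sdhaf2) and 0.91 (Sdhaf1) over the 12 arrays. Sdhaf3, which helps build the iron-sulfur subunit, was at 6.16, 6.35 and 6.52 on the C57BL/6J arrays, 6.86, 6.70 and 6.94 on B6-Lyst, 6.67, 6.79 and 6.43 on B6-albino, and 6.50, 6.62 and 6.79 on B6-D2 congenic arrays. It was the member nearest the threshold in B6-Lyst, whose arrays all lay above those of C57BL/6J, and C57BL/6J replicate 3 was here the highest array of its strain. Without C57BL/6J replicate 3 its B6-Lyst minus C57BL/6J difference was 0.58. Sdhaf1, which serves the same subunit, was at 7.54, 7.57 and 7.23 on the C57BL/6J arrays, 7.77, 7.67 and 7.39 on B6-Lyst, 7.68, 8.04 and 7.38 on B6-albino, and 7.84, 7.90 and 8.13 on B6-D2 congenic arrays. Its B6-D2 congenic arrays lay above those of C57BL/6J and B6-Lyst, and the difference from C57BL/6J was 0.51 (SE 0.18, adjusted p = 0.194). The F test gave adjusted p-values of 0.185 for Sdhaf3 and 0.280 for Sdhaf1. Sdhaf2 and Sdhaf4, which assist the flavoprotein, had strain means of 8.19 to 8.48 and 8.61 to 8.82.

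The small subunits of complex III had some of the widest spreads between arrays. Uqcrh was at 11.02, 10.63 and 8.96 on the C57BL/6J arrays, 11.44, 11.26 and 10.32 on B6-Lyst, 11.19, 11.78 and 10.79 on B6-albino, and 10.61, 11.34 and 11.92 on B6-D2 congenic arrays. C57BL/6J replicate 3 lay below every other array. C57BL/6J replicate 1 lay within the range of each mutant strain, and replicate 2 within those of B6-Lyst and B6-D2 congenic but below all B6-albino arrays. Uqcrq, a small subunit near the ubiquinone site, was at 10.24, 9.92 and 9.42 on the C57BL/6J arrays, 10.45, 10.42 and 10.05 on B6-Lyst, 10.24, 10.57 and 10.04 on B6-albino, and 10.25, 10.54 and 11.01 on B6-D2 congenic arrays. The B6-D2 congenic arrays lay above those of C57BL/6J by a narrow margin, with a difference of 0.74 (SE 0.24, adjusted p = 0.180, F test 0.254). Its other 3 probe sets were dim and differed by -0.04 to 0.13. Uqcr11 was at 9.67 ± 0.69, 9.98 ± 0.29, 10.25 ± 0.34 and 10.62 ± 0.66 in C57BL/6J, B6-Lyst, B6-albino and B6-D2 congenic irides, and Uqcr10 at 9.07 ± 0.15, 9.46 ± 0.42, 9.62 ± 0.19 and 9.78 ± 0.48. Uqcrb, another small subunit, was at 13.27 ± 0.25, 13.34 ± 0.36, 13.66 ± 0.16 and 13.54 ± 0.29.

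Uqcrc1 and Uqcrc2 are the core proteins of complex III. Uqcrc2 was at 11.15, 11.32 and 10.92 on the C57BL/6J arrays, 11.09, 11.33 and 11.05 on B6-Lyst, 11.55, 11.56 and 11.58 on B6-albino, and 11.23, 11.33 and 11.35 on B6-D2 congenic arrays. The B6-albino arrays lay close together (SD 0.01) and above all others. The difference was 0.43 from C57BL/6J (SE 0.13, adjusted p = 0.117) and -0.41 for B6-Lyst minus B6-albino (SE 0.13, adjusted p = 0.127), and the F test gave an adjusted p of 0.167. Its second probe set differed by 0.54 and -0.38. Uqcrc1 was at 9.68 ± 0.76, 10.11 ± 0.32, 10.47 ± 0.19 and 10.38 ± 0.51 in C57BL/6J, B6-Lyst, B6-albino and B6-D2 congenic irides, a spread in C57BL/6J about as large as the difference between strains. Uqcrfs1, the Rieske iron-sulfur protein, was at 10.42 ± 0.28, 10.65 ± 0.19, 10.85 ± 0.15 and 10.75 ± 0.12, and its difference of 0.43 in B6-albino irides had an adjusted p of 0.179.

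The promoter of Uqcr11 (chr10:80406822-80406941, minus strand, GRCm38.p6) is shown as that of the complex III gene with the second largest difference in B6-D2 congenic irides, with its ETS match in capitals in the 120 bases before the start.
Uqcr11: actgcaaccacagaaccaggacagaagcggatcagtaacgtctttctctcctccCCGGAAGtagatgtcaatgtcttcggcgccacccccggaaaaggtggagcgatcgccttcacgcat

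**Figure D3:**
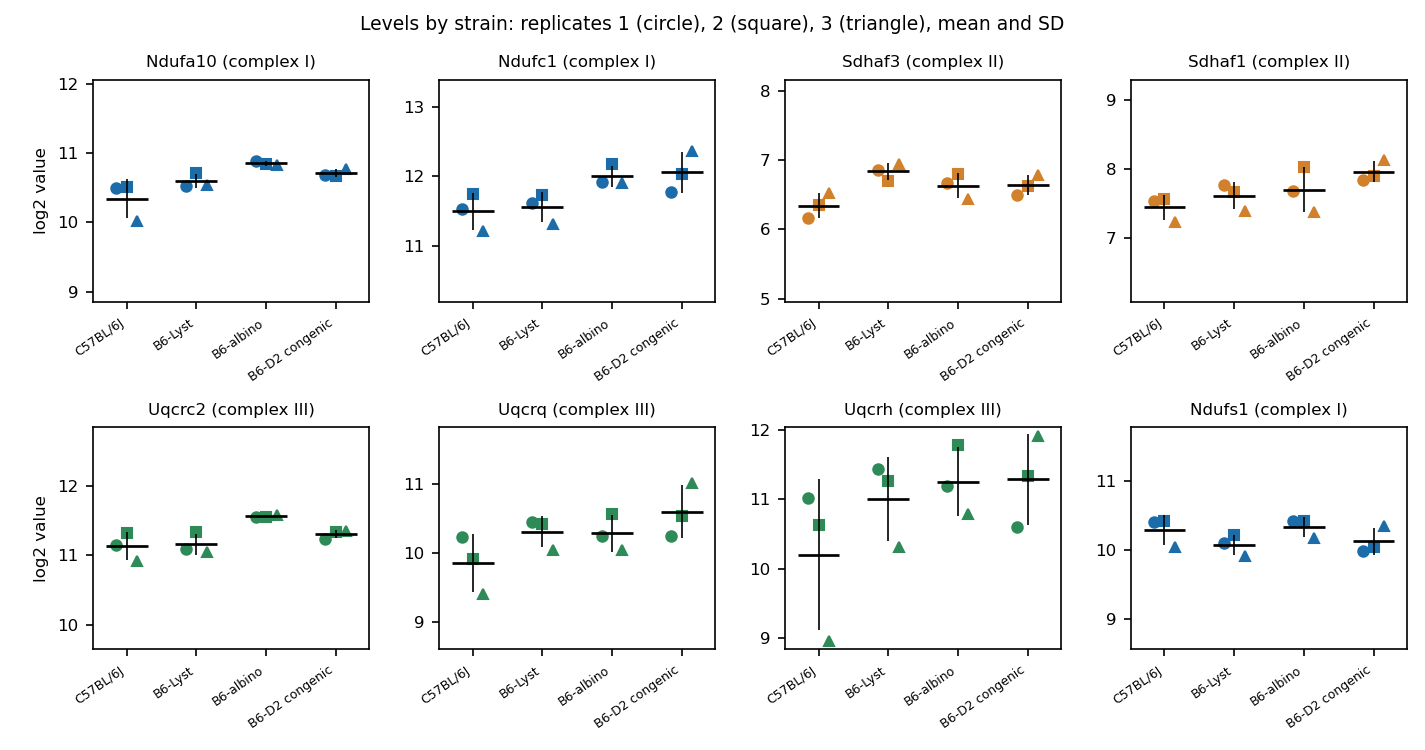
Log2 value (vertical axis) of 8 genes in each strain (horizontal axis), with replicates 1, 2 and 3 as circle, square and triangle and the strain mean and SD in black; axes do not start at 0 and differ between genes. Replicate 3 is the lowest C57BL/6J array in every panel but that of Sdhaf3 and the highest B6-D2 congenic array in every panel, and B6-albino stands above the other strains for Ndufa10 and Uqcrc2.

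Between the mutant strains, all arrays lay at the low poly-A spike level. The hybridization spike-in controls averaged 9.67 to 9.76 on the B6-Lyst arrays and 9.99 to 10.17 on the B6-albino and B6-D2 congenic arrays. A comparison of B6-Lyst with either strain and this technical difference thus cannot be told apart. B6-Lyst had lower means than B6-albino for most genes: 7 of 51 were higher in B6-Lyst, and the median difference was -0.19 (range -0.45 to 0.44), beside 39.8% and -0.07 for all tested genes. By limma 0 genes passed (beside 2.29% of all genes, lowest adjusted p 0.127), 2 had an unadjusted p under 0.05 (Ndufc1 and Uqcrc2), beside 19.2%, and 7 did not overlap, all lower, beside 18.1%. Both shares were below those of all genes. The lowest were Ndufc1 at -0.45 (SE 0.19, adjusted p = 0.227), Uqcrc2 at -0.41 and Ndufa1, an essential X-linked subunit, at -0.38 (adjusted p = 0.300). The highest were Ndufa4l2 at 0.44 (adjusted p = 0.349), Sdhaf3 at 0.21 and Ndufb1 at 0.18. After quantile normalization the median turned to 0.03 with 28 genes higher in B6-Lyst. Without B6-Lyst replicate 3 it was -0.07, without B6-albino replicate 2 it was -0.10, and with the actin covariate it was -0.19.

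Against the B6-D2 congenic strain, 4 of 51 genes were higher in B6-Lyst, and the median difference was -0.25 (range -0.65 to 0.20), beside 34.7% and -0.08 for all tested genes. By limma 0 genes passed (beside 1.3% of all genes, lowest adjusted p 0.326), 6 had an unadjusted p under 0.05, beside 11.0%, and 8 did not overlap, all lower, beside 12.5%. Both shares were near those of all genes. The lowest were Uqcr11 at -0.65 (adjusted p = 0.604), Ndufs7 at -0.52 and Ndufc1 at -0.51 (adjusted p = 0.417). The highest were Sdhaf3 at 0.20, Ndufa4l2 at 0.15 and Ndufb1 at 0.10. The median was -0.09 without B6-D2 congenic replicate 3, -0.39 without B6-D2 congenic replicate 1, -0.16 without B6-Lyst replicate 3 and -0.10 after quantile normalization. With the actin covariate it was -0.27, and 16 genes had an unadjusted p under 0.05, beside 18.3% of all genes in the same fit. There were 13 such genes without B6-D2 congenic replicate 1, beside 14.4%, and 1 each without B6-D2 congenic replicate 3 (beside 6.61%) and without B6-Lyst replicate 3 (beside 7.38%).

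Between B6-albino and B6-D2 congenic irides, 14 of 51 genes were higher in B6-albino, and the median difference was -0.07 (range -0.47 to 0.26), beside 45.8% and -0.02 for all tested genes. By limma 0 genes passed (beside 0.091% of all genes), 0 had an unadjusted p under 0.05, beside 6.43%, and the lowest adjusted p was 0.617. The arrays did not overlap for 2 genes that were higher in B6-albino (beside 6.13% of all genes) and 3 that were lower (beside 6.25%). The lowest were Ndufa7 at -0.47 (SE 0.30, adjusted p = 0.709), Ndufs5 at -0.39 and Uqcr11 at -0.38, and the highest Uqcrc2 at 0.26 (SE 0.13, adjusted p = 0.617), Ndufs1 at 0.21 and Ndufc2 at 0.21. The direction turned with 1 array: without B6-D2 congenic replicate 3 the median was 0.07 and 38 genes were higher in B6-albino, and without B6-albino replicate 3 it was 0.03 with 32 higher. Without B6-D2 congenic replicate 1 it was -0.20, without B6-albino replicate 2 -0.19, without B6-albino replicate 1 -0.04, after quantile normalization -0.12 and with the actin covariate -0.09.

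The other genes of energy supply are described as lists, none of whose genes limma called in any pair. The 18 ATP synthase subunits had medians of 0.20, 0.43 and 0.41 in B6-Lyst, B6-albino and B6-D2 congenic irides against C57BL/6J, with 16, 18 and 18 of 18 higher. The 15 complex IV subunits, which pass electrons to oxygen, had medians of 0.06, 0.22 and 0.26, with 11, 11 and 12 higher. The 16 genes of the citric acid cycle and pyruvate oxidation had medians of -0.02, 0.29 and 0.16. Cytochrome c and cytochrome c1 (Cycs and Cyc1) had medians of -0.01, 0.29 and 0.25. Cyc1, the complex III subunit outside the rule, was at 11.50 ± 0.19 in C57BL/6J. In the mutant strains, in the same order, it was at 11.42 ± 0.17, 11.77 ± 0.26 and 11.83 ± 0.19. Its mean was thus lower in B6-Lyst than in C57BL/6J, unlike those of the 8 complex III genes of the rule. The 13 complex I assembly factors had medians of 0.18, 0.32 and 0.30, with 12, 11 and 12 higher, and the 5 of complex III, Bcs1l among them, 0.30, 0.29 and 0.48 with 3 of 5 higher each time. Glycolysis, which makes ATP outside mitochondria, had medians of 0.14, 0.44 and 0.51 over 14 genes. The 10 regulators of mitochondrial biogenesis, which include Ppargc1a, Nrf1 and Tfam, had medians of 0.07, 0.10 and 0.03.

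These lists followed the same arrays. On C57BL/6J replicate 3 the median deviation was -0.63 for ATP synthase, -0.44 for complex IV, -0.34 for the citric acid cycle and -0.90 for glycolysis, and -0.01 for the biogenesis regulators. On B6-D2 congenic replicate 3 it was 0.48, 0.47, 0.29, 0.42 and 0.22 in the same order. Macrophage markers moved on other arrays: their median deviation was 1.99 to 2.42 on the B6-Lyst arrays and below 0 on all others. By limma all 9 rose in B6-Lyst against C57BL/6J with a median of 3.00, while the complex I, II and III genes, with a median of 0.17, did not pass the test.

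**Figure D4:**
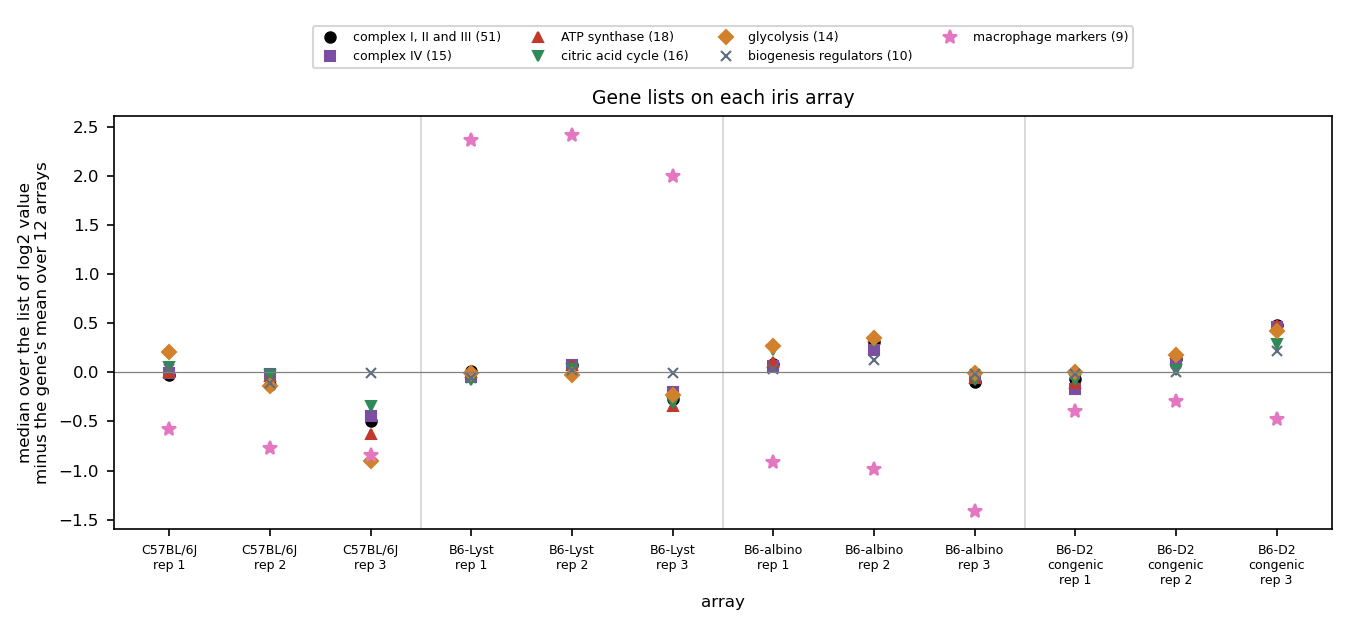
Median over a list of the log2 value minus the gene's mean over 12 arrays (vertical axis), for 7 gene lists with the number of tested genes in brackets, on each array (horizontal axis, strains separated by lines). The complex I, II and III genes, complex IV, ATP synthase, the citric acid cycle and glycolysis are low on C57BL/6J replicate 3 and high on B6-D2 congenic replicate 3, the biogenesis regulators stay between -0.10 and 0.22, and the macrophage markers are at 1.99 or more on the B6-Lyst arrays.

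Most lens and retina markers also had higher strain means in the mutant strains than in C57BL/6J. Within strains they followed the order of the complex I, II and III genes on some arrays and not on others. The 9 lens markers, all of them higher in B6-albino and B6-D2 congenic irides than in C57BL/6J, had medians of 0.45, 2.23 and 1.55 in B6-Lyst, B6-albino and B6-D2 congenic irides. The 8 tested photoreceptor markers were all higher in each comparison, with medians of 1.05, 1.49 and 0.94, and the mean over the list spanned 6.90 to 8.73 on C57BL/6J arrays, 7.45 to 9.39 on B6-Lyst, 7.47 to 9.85 on B6-albino and 7.16 to 9.75 on B6-D2 congenic arrays. The 5 retinal pigment epithelium markers had medians of 0.05, 1.44 and 0.82. By limma none of these markers passed in a comparison with C57BL/6J. The median deviation of the lens markers was -1.45, 0.18 and -1.99 on C57BL/6J replicates 1, 2 and 3. That of the photoreceptor markers was -1.41, 0.53 and -1.56, beside -0.03, -0.12 and -0.49 for the complex I, II and III genes. On B6-D2 congenic replicates 1, 2 and 3 the lens markers were at 0.04, 0.59 and 0.73, beside -0.07, 0.13 and 0.48 for the complex I, II and III genes. On the B6-albino arrays they were at 1.02, 0.66 and 1.68, beside 0.08, 0.31 and -0.10. The photoreceptor markers were at 1.54 and -1.39 on B6-D2 congenic replicates 1 and 3, where the complex I, II and III genes were at -0.07 and 0.48, and at -0.95 and 1.69 on B6-albino replicates 2 and 3, where those genes were at 0.31 and -0.10. The lens markers were at -3.38 on B6-Lyst replicate 2, the highest B6-Lyst array of the complex I, II and III genes. Between mutant strains, 8 of 8 photoreceptor and 0 of 9 lens markers were higher in B6-Lyst than in B6-D2 congenic irides, beside 4 of 51 complex I, II and III genes. In B6-Lyst against B6-albino irides, 1 of 8 photoreceptor and 0 of 9 lens markers were higher, beside 7 of 51. In B6-albino against B6-D2 congenic irides, 8 of 8 and 9 of 9 were higher, beside 14 of 51. The part of such tissue in the differences of the complex I, II and III genes was not tested. Smooth muscle markers, known from the sphincter of the iris, had medians of 0.11, -0.08 and 0.04, and endothelial markers -0.56, -0.36 and -0.46. Without the 3 arrays with high Krt12 the medians of the complex I, II and III genes were 0.25, 0.41 and 0.50.

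Other probe sets of the same genes were compared with the representatives. Beyond the representatives, 53 tested probe sets named a member alone, from 29 genes with several. Their sign matched the representative's in 39, 42 and 44 of 53 in B6-Lyst, B6-albino and B6-D2 congenic irides against C57BL/6J, with medians of 0.16, 0.27 and 0.32, and limma called 0 in any pair. In the pairs of mutant strains the sign matched in 38 to 45 of 53. In B6-D2 congenic irides the sign differed for probe sets of Ndufab1, the mitochondrial acyl carrier protein, at -0.04, -0.66 and -0.05 against 0.40 for its representative, and for 1 of Ndufb2 at -0.27 against 0.49. It also differed for 1 of Sdha at -0.48 against 0.11, for Ndufc2 at -0.05 and -0.03 against 0.08, and for Uqcrq at -0.04 and -0.02 against 0.74. Against C57BL/6J in any strain, 12 genes had a probe set of the opposite sign, Ndufa5, Ndufa12, Ndufb8, Ndufb9, Ndufb11, Ndufs4 and Ndufs7 being the others. The representative of 9 genes carries a suffix that marks probes shared with similar transcripts, those of Uqcrh and Uqcrq among them. A further 8 symbols with these stems (Ndufa11, Ndufa11b, Ndufab1-ps, Ndufb4b, Ndufb4c, Ndufs5-ps, Ndufs6 and Ndufs6b) lie only on probe sets that name another gene as well and were not analysed here.

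Over a wider window, 250 bases before to 50 after the RefSeq start, 43 of the 51 genes had a promoter sequence. The NRF1 letters GCGCNTGCGC, on either strand, were in 9 of them (20.9%), beside 10.5% of the 10592 tested genes with a promoter and 5.19% of all 27025 promoters. The ETS letters CCGGAAG were in 11 (25.6%, beside 18.0% and 9.93%), and the YY1 letters AAGATGGCG in 4 (9.30%, beside 3.25% and 1.64%). At least 1 of these motifs was in 22 of 43 promoters (51.2%, beside 28.3% and 15.1%), and different motifs overlapped in 0 of 45 windows. Promoters were not matched on base composition, and the shares are a description of these letters.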

How the data were processed

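RNA of pooled mouse irides was hybridised to 12 arrays. The deposited values are log2 signals, a scale read from the values themselves. How the authors corrected background, normalized and summarised them is not given in the sources used here. The small number of arrays limits precision.

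Of 45037 probe sets other than the 64 controls, 34945 had 1 gene symbol in the platform annotation, 932 several and 9160 none, and 34741 matched a RefSeq table of GRCm38.p6, which served for names, with its promoter sequences. Probe sets with a mean at or above the 40th percentile (5.653) were tested (27022). The brightest represented each gene (13190 genes).

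Differences were tested with limma (version 3.58.1, R 4.3.3), with 1 mean per strain over all 12 arrays, an intensity trend (prior degrees of freedom 3.57), two-sided tests and Benjamini-Hochberg adjustment within each pair over all tested probe sets. The script was tested on simulated data. P-values measure the spread between these samples. Gene counts of all genes use 1 probe set per gene.

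The genes and lists were chosen with earlier results of these data known. Genes named array by array are the 2 per complex with the smallest F-test p. Named with strain means or array values are core subunits, complex II subunits, Ndufa4 and Ndufa4l2. Strain means were also planned for members whose probe sets disagree and for the 3 largest differences in each direction of each pair. Many of these are given only as differences or by name. Array values of Ndufs1, Ndufa7, Sdha, Ndufa4l2 and Uqcrh, and the levels of Ndufa8, Uqcr10 and Uqcrb, and of Sdhaf2 and Sdhaf4, were added after their values were seen. Promoters were chosen for their motif matches.

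Alternatives were another scaling, filter, probe set summary, prior or sample set, an actin covariate, a replicate block and leaving out each array, with 1 more added after seeing the data (only the 9 mutant arrays).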

Additional observations from a re-analysis of the deposited data

How the results depend on the processing

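The count of complex I, II and III genes called was 0 in each of the 6 pairs under all alternatives run (22 or 23 a pair), and the lowest adjusted p over them was 0.0615, 0.0834 and 0.0771 in B6-Lyst, B6-albino and B6-D2 congenic against C57BL/6J. Between mutant strains it was 0.0574 (B6-Lyst and B6-albino), 0.0637 (B6-Lyst and B6-D2 congenic) and 0.116. The F test called 1 of 51 genes, Ndufa7, with the actin covariate and 0 under its other 20 alternatives. In the fit with the actin covariate 21.6% of the members had an unadjusted F-test p under 0.05, beside 27.1% of all genes. With the replicate number as a block (replicate block) the count was 0 in each pair. Same-numbered samples of different strains deviated together in 6 of 18 pairs of arrays (r over 0.1, range -0.43 to 0.39), so the numbers were not taken to pair the samples.

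Small differences of named genes turned sign, with the cause not tested. After quantile normalization B6-Lyst minus B6-D2 congenic was 0.040 for Ndufa10 and 0.031 for Uqcrc2, and the median of B6-Lyst minus B6-albino 0.032. With the actin covariate B6-Lyst minus C57BL/6J was -0.075 for Ndufc1 and -0.036 for Uqcrc2. Over the fits without 1 array the same difference ran from -0.083 to 0.184 for Ndufc1 and from -0.079 to 0.122 for Uqcrc2. B6-Lyst minus B6-albino ran from -0.099 to 0.165 for Uqcrq and from -0.247 to 0.080 for Sdhaf1, and B6-albino minus B6-D2 congenic from -0.087 to 0.093 for Sdhaf3 and from -0.200 to 0.094 for Ndufc1.

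With 3 arrays a strain and an interval of 0.41 to either side at the median, differences of the size seen in most of these genes were not resolved.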
